A study of Mus musculus with 7 samples.

Results

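The Slit, semaphorin, plexin and netrin genes were followed across 7 mouse esophageal epithelial cell lines. The 43 genes were chosen by gene symbol from the 23955 gene names of the count table. They comprise 3 Slit ligands, 4 Robo receptors, Slitrk6, 6 secreted and 13 membrane-bound semaphorins, 9 plexins, 2 neuropilins, 2 netrins and 3 netrin receptors. The choice was made with results of these data in view, since Slit3 was known to have one of the largest differences between mutant and WT lines and Slitrk6 one of the largest between null and WT lines. Those differences, and that of Slitrk6 between mutant and WT lines, are given as descriptions without a p-value. The differences of both genes between mutant and null lines use some of the same lines and are treated alike. The adjusted p-values of the other genes give their place in a fit across all genes and are not independent evidence about the family. Of the 43 genes, 38 passed the filter on low counts and were tested. Slit1, Robo4, Sema5b, Plxna4 and Plxnb3 did not pass it.

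Polyadenylated RNA was sequenced from lines kept on plastic in KSFM, a serum-free keratinocyte medium. WT 1 and WT 2 had the wild type genotype and no treatment label. Mutant 1, 2 and 3 had the genotype p53R172H mutant, a missense change in the DNA-binding domain of p53, and the treatment label 4NQO, an esophageal carcinogen. Null 1 and null 3 had the genotype p53 -/- null and the same 4NQO label. All 7 lines came from a mixed strain background. No WT line carried the 4NQO label and every other line did, so p53 genotype and 4NQO cannot be told apart in any comparison with WT, and both of those comparisons use the same WT libraries. The labels do not say whether the lines came from separate animals, so a p-value here reflects only how much these lines vary.

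These genes encode secreted and membrane-bound guidance cues and their receptors. Slits bind Robo receptors, semaphorins bind plexins, in part through neuropilins as co-receptors, and netrins bind DCC, neogenin and UNC5 receptors. The cues were first described in growing axons, and in epithelia they also act on adhesion, migration and vessel growth.

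The starts of Slit3, Robo3 and Slitrk6, picked after their values were seen for their steep differences between WT and the other lines, are shown first. RefSeq windows on GRCm38.p6 were found for 36 of the 43 genes, and the 250 bases before the start are printed 5′ to 3′ on the gene's strand. Capitals mark the GC box, GGGCGG on either strand, in Slit3 (chr11:35121206-35121455, plus strand) and Robo3 (chr9:37433176-37433425, minus strand). In Slitrk6 (chr14:110755150-110755399, minus strand) they mark the AP-1 letters TGANTCA.
Slit3: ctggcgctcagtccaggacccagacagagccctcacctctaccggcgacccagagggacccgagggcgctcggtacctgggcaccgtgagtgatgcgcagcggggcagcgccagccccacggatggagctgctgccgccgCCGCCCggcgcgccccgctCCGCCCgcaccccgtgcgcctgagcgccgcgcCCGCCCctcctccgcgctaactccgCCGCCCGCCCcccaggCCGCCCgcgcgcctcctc
Robo3: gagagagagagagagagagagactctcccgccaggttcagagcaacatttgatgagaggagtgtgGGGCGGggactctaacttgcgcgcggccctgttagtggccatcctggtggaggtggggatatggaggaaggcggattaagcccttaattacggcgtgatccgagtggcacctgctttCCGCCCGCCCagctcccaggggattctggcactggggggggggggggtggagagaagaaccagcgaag
Slitrk6: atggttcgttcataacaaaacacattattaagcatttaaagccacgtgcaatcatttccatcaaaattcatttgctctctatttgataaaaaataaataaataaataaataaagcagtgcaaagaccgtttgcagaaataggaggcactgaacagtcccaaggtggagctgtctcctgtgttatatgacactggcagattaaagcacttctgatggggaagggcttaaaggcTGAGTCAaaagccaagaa
The Slit3 window held 6 GC boxes, counting overlaps, and 35 CpG dinucleotides at 78.8% G+C. The Robo3 window held 3 GC boxes and 12 CpG at 61.2% G+C, and the Slitrk6 window held 1 AP-1 match and 3 CpG at 37.2% G+C. Among 32851 mouse windows of this length, 32.7% held a GC box, 6.75% held the AP-1 letters, and the median number of CpG was 6. GC boxes also occurred in members that edgeR did not call, such as Sema5a (5) and Ntn4 (4), and not in Robo1 or Unc5c. The AP-1 letters also occurred in windows of Sema4c, Sema4d and Sema6b. A different motif was put in capitals for Slitrk6, whose window held 0 GC boxes. Among other members, Nrp1, lower in mutant lines, had 11 CpG at 64.4% G+C and Nrp2 had 32 CpG at 72.4%. The ZEB-type E-box CAGGTG, found in 17.2% of windows, occurred in Robo3 and in neither of the others. None of the 3 windows held the letters of a p53 half-site, which occurred in 7.13% of all windows. These are matches of letters only.

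The libraries held between 12751118 (WT 2) and 47000225 (mutant 1) counts. Trp53, the targeted gene, was at 171.6 to 253.9 CPM (normalised counts scaled by library size) in WT and mutant lines and at 8.73 and 4.71 CPM in null 1 and null 3. All 10 epithelial markers exceeded 1 CPM in every library. Their sums, mostly Krt5 and Krt14, were 30990 and 41560 CPM in WT and 8085 to 13210 CPM in the other lines. Krt5, Krt14 and Dsp were lower in every other line than in both WT lines, and the ranges of the remaining epithelial markers overlapped WT. Trp63 was at 280.8 and 411.6 CPM in WT and at 168.1 to 440.5 CPM in the other lines. Summed fibroblast markers were at 859.8, 376.1 and 478.4 CPM in mutant 1, mutant 3 and null 3 and at 5.75 to 9.78 CPM in the other 4 lines. Col1a1, Col3a1, Pdgfra, Pdgfrb and Dcn were each higher in these 3 lines than in any other. Col1a2 was at 326.4, 1.51 and 10.1 CPM in them, in the same order, and Postn at 292.7, 0.115 and 58.0 CPM. Lum, a fibroblast matrix gene, did not exceed 0.0203 CPM in any line, and Thy1 and Fap did not exceed 0.797 CPM. Neural and Schwann cell markers summed to 3.03 to 18.3 CPM with Sox10 at 0 throughout, and endothelial markers to 5.43 to 15.1 CPM with Emcn and Cldn5 at 0. Muscle markers, mostly Acta2, summed to 29.3 to 814.2 CPM, and immune markers, mostly Cd68, to 23.5 to 92.0 CPM with Cd3e at 0. Xist was at 675.4 and 1653 CPM in WT 1 and WT 2 and at 0.964 CPM or less in the other 5 lines, so whatever goes with the Xist level cannot be told apart from the contrast with WT either. In bulk RNA, fewer cells of a type and less RNA per cell cannot be told apart.

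Levels spanned a wide range within the family. Per kb of exon, Plxnb2 (86.8 CPM per kb, mean of 7 lines), Sema3c (57.6), Plxna1 (34.8), Nrp2 (32.4), Sema3f (28.3) and Neo1 (23.1) were the highest. At the other end, Slit1, Robo4, Sema5b, Sema6b, Plxna4, Plxnb3 and Plxnc1 did not exceed 0.753 CPM in any line. The heat map gives the level of each gene by line, not scaled by length.

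**Figure D1:**
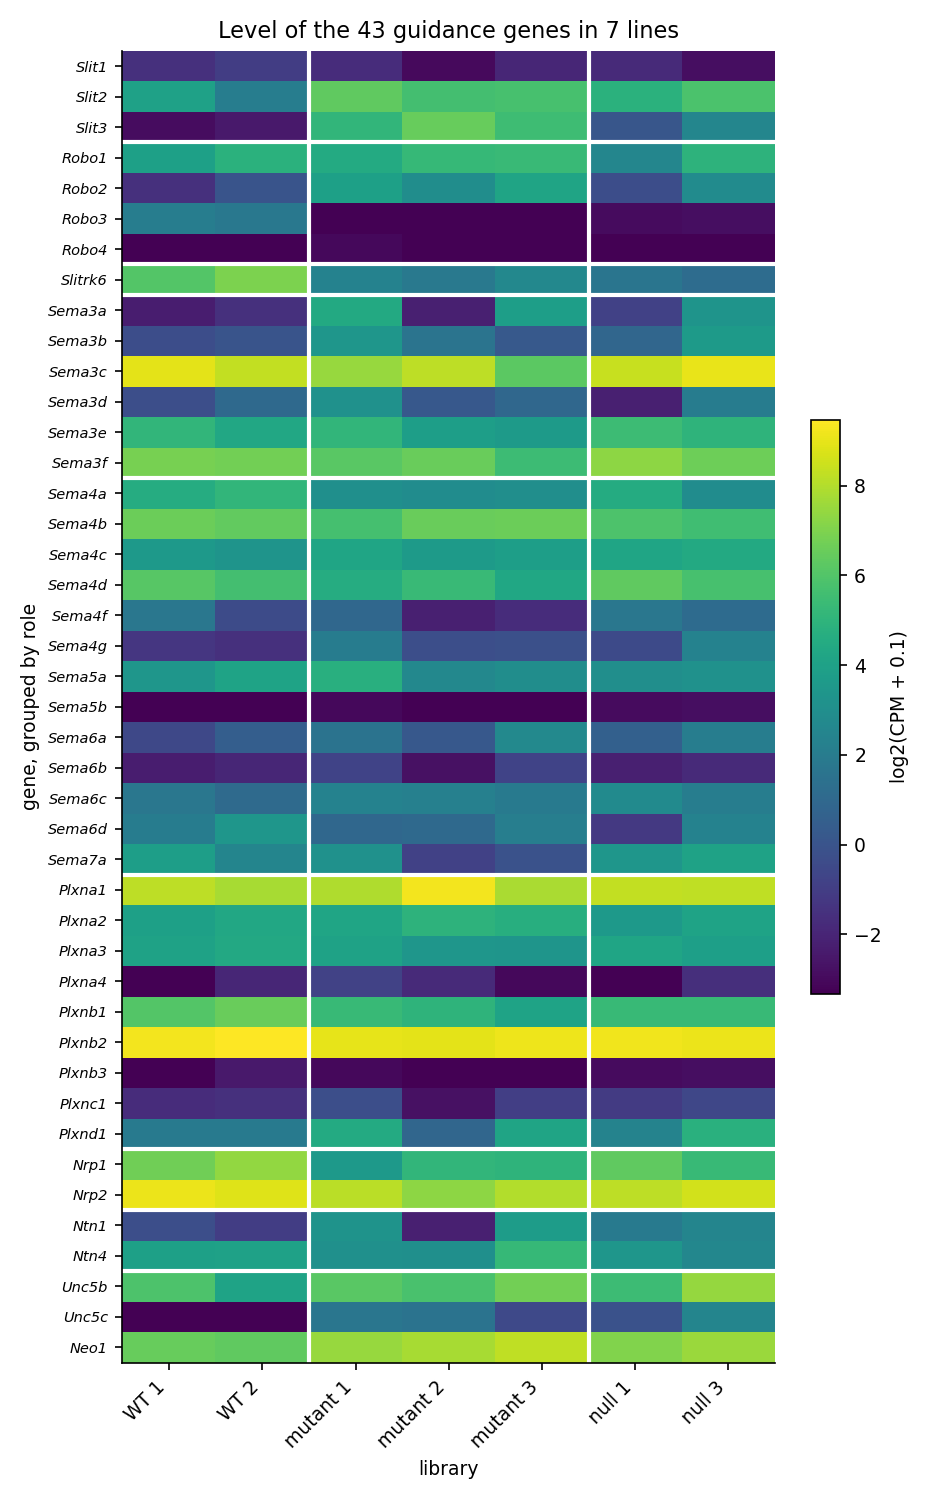
Heat map of log2(CPM + 0.1) for the 43 genes (rows, grouped by role) in the 7 lines (columns, by group). Plxnb2, Plxna1, Sema3c and Nrp2 are high in every line. Slitrk6 and Robo3 are higher in WT lines than in the other lines, and Slit3 is highest in mutant lines.

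In mutant against WT, Neo1 rose and Nrp1 fell by the edgeR quasi-likelihood test at an adjusted p of 0.05. Slit3, Robo3 and Slitrk6 were also past that threshold, but for them this is a description. Slit3 was chosen with this difference known, and Robo3 passed the filter on low counts only through the WT group. Slitrk6 was chosen with its null difference known, which rests on the same WT lines. With them, 2 of 38 tested genes were called higher and 3 lower, beside 3.30% and 4.13% of all 13768 genes tested, and nothing is read from these shares. In null against WT, 0 genes were past the threshold on the higher side and 1 on the lower, Slitrk6, the gene chosen with that difference known. Of all genes, 0.0726% and 0.0654% were called there, printed without a reading. In mutant against null, 0 members were called in either direction, as were 0% of all genes higher and 0% lower. By edgeR, 6 of the 38 members had an unadjusted p under 0.05 there, beside 14.0% of all genes, and nothing is read from this. DESeq2 called Sema4d in that comparison, and Slit3, for which this is a description, while limma-voom called 0 members. The number of all genes DESeq2 called there is not set beside this, so nothing is read from it. The median log2 fold change of the 38 was 0.47, 0.35 and -0.22 in the 3 comparisons, beside 0.08, 0.06 and 0.02 over all genes.

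Group ranges were also compared without a test. In mutant against WT, 9 of the 38 genes were higher in every mutant line than in both WT lines and 11 were lower in every one, where 26.9% and 25.7% of all genes did so. In null against WT, 14 were higher and 10 lower without overlap, beside 29.1% and 27.1% of all genes. Between mutant and null lines, 4 were higher and 10 lower in mutant, beside 16.0% and 15.1%. As shares of the 38 these are 23.7% and 28.9%, 36.8% and 26.3%, and 10.5% and 26.3%, in the same order. The gaps to the shares of all genes were not tested. The calls in mutant against WT, of members and of all genes, depended on single lines. Leaving out mutant 3 left 0 members called, beside 6 of all 13632 genes then tested. Leaving out mutant 2 left 1 (Slitrk6), beside 37 of 13667, and leaving out mutant 1 left 8, beside 1420 of 13384. With all lines, 1022 of 13768 genes were called. Fits without WT 1 or WT 2 leave a single WT line, so their calls are not counted.

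**Figure D2:**
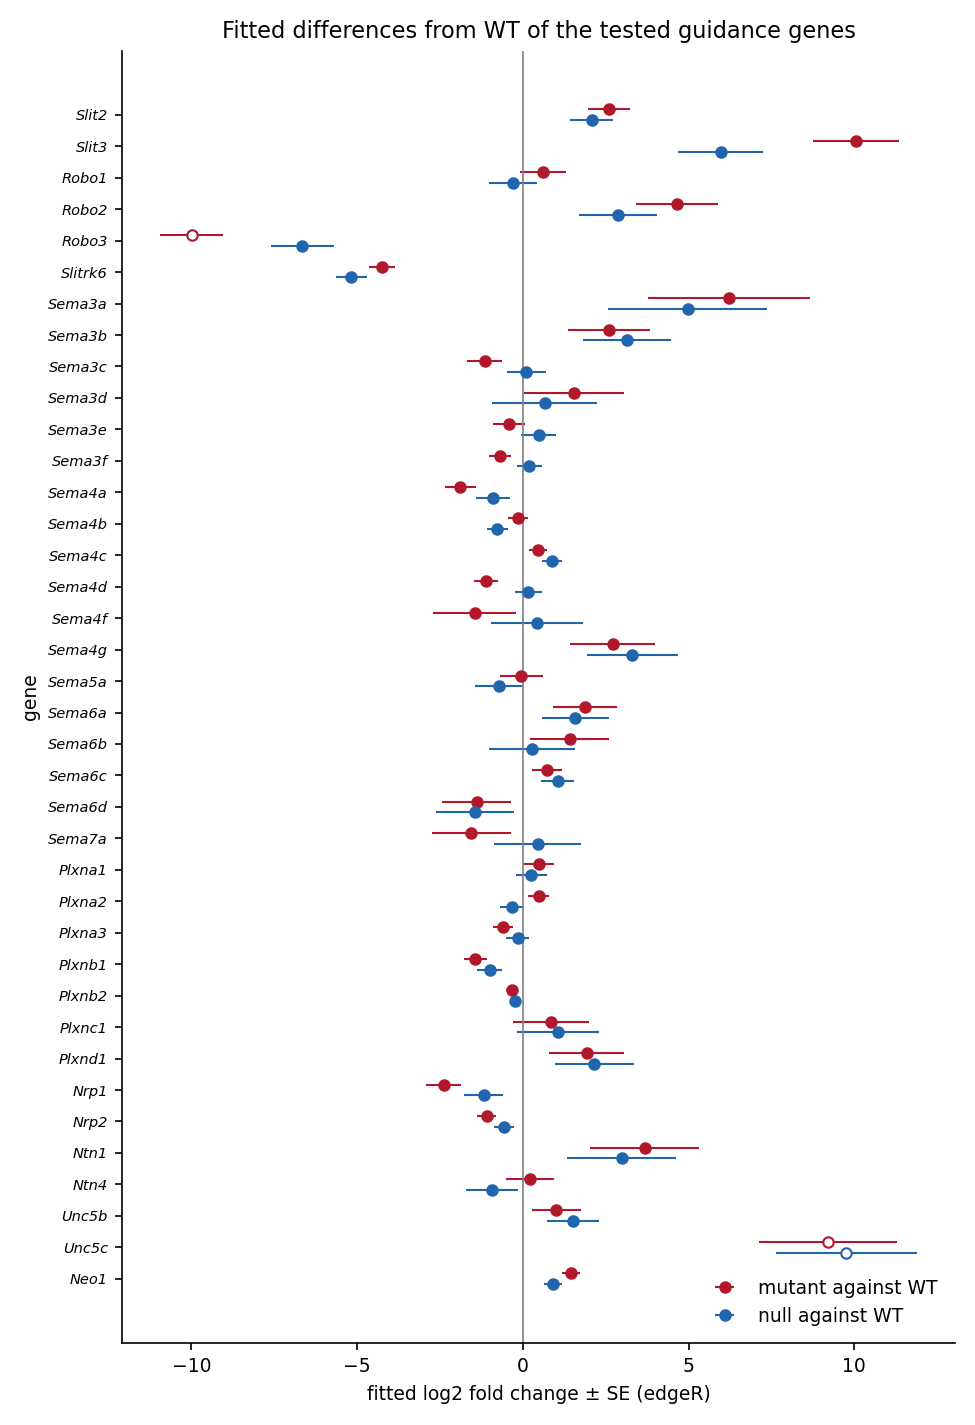
Fitted log2 fold change (x axis) of each tested gene (rows), with its standard error, in mutant against WT (red) and null against WT (blue), which share the WT lines. Hollow points had a group with 0 counts, so their fitted size is no bound. Slitrk6 and Robo3 lie far to the left and Slit3 and Unc5c far to the right in both colours.

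Slit3, a secreted Robo ligand, was nearly absent from WT lines and present in every mutant line. It was at 0.0340 and 0.0812 CPM in WT 1 and WT 2 (1 count each), at 34.0, 88.6 and 45.6 CPM in mutant 1, 2 and 3, and at 0.974 and 5.66 CPM in null 1 and null 3. The 3 groups did not overlap, with null lines between WT and mutant. Pooled levels in mutant were 1143 times those in WT (95% interval 316.2 to 9437, counting error only), and those in null were 63.8 times (17.4 to 530.5). The difference between mutant and null was 4.09 on the log2 scale (SE 0.857). It is given as a description, since it uses the mutant lines on which Slit3 was chosen. Mutant 2, which had the highest Slit3 level, had 9.78 CPM of summed fibroblast markers beside 8.61 CPM in WT 2.

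Slit2, the second secreted ligand, was also lowest in WT lines. It was at 15.9 and 4.22 CPM in WT 1 and WT 2, at 81.0, 49.1 and 53.6 CPM in mutant 1, 2 and 3, and at 28.5 and 58.0 CPM in null 1 and null 3. Every mutant and null line was above both WT lines. The log2 fold changes were 2.59 (SE 0.632, edgeR adjusted p = 0.0570) in mutant and 2.09 (SE 0.649, adjusted p = 0.171) in null against WT. Neither was called by edgeR or limma-voom, while DESeq2 called both. Slit1 held 1 to 10 counts per library. Per kb, the summed Slit level was 1.63 and 0.506 CPM in WT lines, 14.6, 21.9 and 14.1 CPM in mutant lines, and 3.06 and 6.88 CPM in null lines. Slit2 was the main Slit in both WT lines, both null lines and mutant 1, and Slit3 the main one in mutant 2 and mutant 3.

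The Robo receptors included genes with higher and genes with lower levels in mutant lines. Robo1, a Slit receptor and the main Robo per kb in every line, was at 15.5 and 29.0 CPM in WT, 22.5, 38.1 and 41.0 CPM in mutant, and 5.78 and 30.3 CPM in null lines. Its groups overlapped, and its largest log2 fold change was 0.91 (SE 0.688), in mutant against null. Robo2, a second Slit receptor, was at 0.238 and 0.893 CPM in WT, 15.3, 7.59 and 17.9 CPM in mutant, and 0.700 and 7.21 CPM in null lines. All mutant lines were above all other lines, and null 1 lay between the WT lines. The Robo2 difference from WT was 4.66 on the log2 scale in mutant (SE 1.23, edgeR adjusted p = 0.0653). It was not called by edgeR or limma-voom, while DESeq2 called it.

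Robo3, a divergent Robo that in mammals does not bind Slits with high affinity, was found almost only in WT lines. It had 124 and 41 counts in WT 1 and WT 2 (4.22 and 3.33 CPM), 0 in each of the 3 mutant libraries, and 1 in each null library (0.0304 and 0.0380 CPM). Mutant and null lines were therefore far below both WT lines. Against a floor of 3 counts over the mutant group, the level was at least 177.9-fold lower than in WT. WT levels were 117.1 times those of null lines (95% interval 31.9 to 974.9, counting error only). No p-value is given for Robo3 against WT, because it entered the test only through its WT level. Robo4, the endothelial Robo, had 1 count, in mutant 1.

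Slitrk6, a membrane protein with Slit-like leucine-rich repeats, was the most reduced of the well expressed members. It was at 65.7 and 122.8 CPM in WT 1 and WT 2, at 5.02, 3.56 and 6.26 CPM in mutant 1, 2 and 3, and at 3.04 and 2.16 CPM in null 1 and null 3. Each mutant and null line was far below both WT lines. The fitted log2 difference of Slitrk6 was -4.25 (SE 0.381) in mutant against WT and -5.17 (SE 0.472) in null against WT. Both are given as descriptions, since they use the same WT lines. The mutant lines lay above the null lines by 0.92 on the log2 scale (SE 0.380). This too is a description, since it uses the null lines on which Slitrk6 was chosen.

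**Figure D3:**
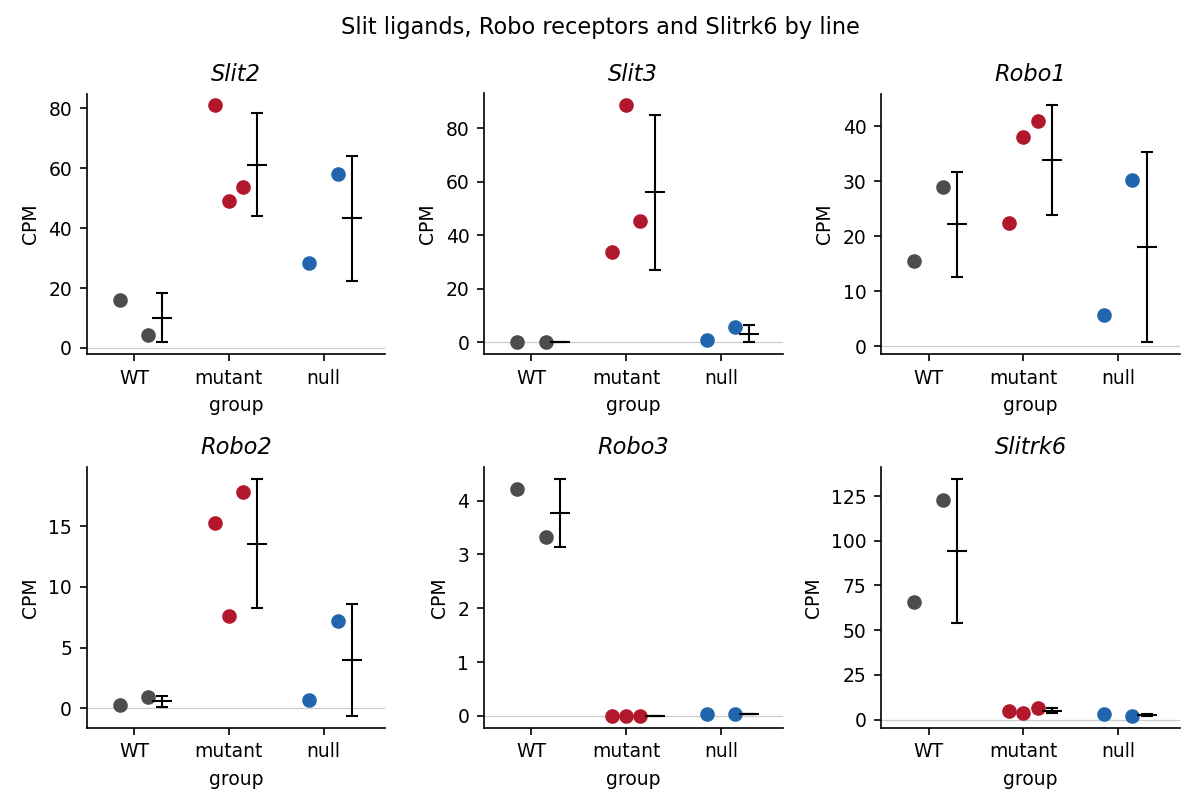
Levels in CPM (y axis) of Slit, Robo and Slitrk6 genes by group (x axis), with points for lines and bars for mean ± SD. Slit3 is highest in the 3 mutant lines, and Slitrk6 and Robo3 are highest in the 2 WT lines.

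Among the secreted semaphorins, which signal through neuropilin and plexin complexes, Sema3c was the main gene in every line. It was at 494.3 and 309.4 CPM in WT, 178.0, 290.5 and 76.0 CPM in mutant, and 335.9 and 530.7 CPM in null lines. The mutant lines were the lowest and the WT and null lines overlapped. The log2 fold change was -1.15 (SE 0.530) in mutant against WT and -1.26 (SE 0.530) in mutant against null, and neither was called (edgeR adjusted p = 0.196 and 0.360). Sema3f, a ligand that prefers Nrp2, was at 116.6 and 107.4 CPM in WT, 73.0, 93.1 and 43.9 CPM in mutant, and 157.4 and 99.2 CPM in null lines. Its mutant lines were also the lowest, and its differences were not called. Per kb, secreted semaphorins summed to 128.8 and 90.6 CPM in WT, 65.8, 82.7 and 31.1 in mutant and 113.2 and 135.3 in null lines.

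The low secreted semaphorins varied between lines of one group. Sema3a, a repulsive cue that binds Nrp1, was at 0.102 and 0.244 CPM in WT, 22.0, 0.119 and 14.5 CPM in mutant, and 0.457 and 9.80 CPM in null lines. Mutant 1, mutant 3 and null 3 were high and the other 4 lines low. Sema3b, which has been described as p53-inducible, was at 0.714 and 0.893 CPM in WT, 10.5, 2.94 and 1.08 CPM in mutant, and 1.80 and 12.5 CPM in null lines. Every mutant and null line was above WT, null 3 having the highest value. The log2 fold changes of Sema3b from WT were 2.60 (SE 1.24) in mutant and 3.15 (SE 1.32) in null, neither called. Sema3d did not exceed 8.73 CPM and Sema3e ranged from 12.3 to 43.3 CPM, both with overlapping groups in each comparison with WT.

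Of the 12 tested membrane-bound semaphorins, edgeR called 0 in any comparison, while DESeq2 called Sema4a and Sema4d in mutant against WT and Sema4d in mutant against null. Sema4b, the main one per kb in 6 of the 7 lines, was at 94.7 and 83.6 CPM in WT, 51.3, 91.8 and 97.9 CPM in mutant, and 58.8 and 46.1 CPM in null lines. WT lines were above both null lines and within the mutant range. Sema4d, the ligand of Plxnb1, was at 69.4 and 50.5 CPM in WT, 24.2, 40.5 and 19.2 CPM in mutant, and 81.9 and 53.1 CPM in null lines. All 3 mutant lines were below all other lines, by 1.10 on the log2 scale against WT (SE 0.361, edgeR adjusted p = 0.101) and by 1.27 against null (SE 0.360, adjusted p = 0.287). Sema4a, a cue also known from immune cells, was at 23.9 and 34.1 CPM in WT, 8.14, 7.26 and 7.98 CPM in mutant, and 23.4 and 7.44 CPM in null lines. The mutant lines were close together and below WT (-1.89, SE 0.466, edgeR adjusted p = 0.0579), while null 1 was at the level of WT 1 and null 3 at that of the mutant lines.

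Sema7a, a membrane-anchored semaphorin that binds Plxnc1 and integrins, was at 14.3 and 5.52 CPM in WT, 8.85, 0.451 and 0.826 CPM in mutant, and 10.4 and 16.7 CPM in null lines. Mutant 2 and mutant 3 were the lowest, and all mutant lines were below both null lines without a call (edgeR adjusted p = 0.477). Sema4g was at 0.306 and 0.244 CPM in WT, 4.01, 0.736 and 0.757 CPM in mutant, and 0.639 and 4.94 CPM in null lines, with every line above WT and mutant 1 and null 3 the highest. Sema4c, the ligand of Plxnb2, ranged from 9.66 to 12.1 CPM in WT, 12.5 to 18.1 CPM in mutant and 18.3 to 21.7 CPM in null lines, 3 groups that did not overlap and were not called apart. The other tested members of this role, Sema4f, Sema5a, Sema6a, Sema6b, Sema6c and Sema6d, did not exceed 26.3 CPM.

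The plexins, receptors for semaphorins, had 0 edgeR calls of 7 tested in each comparison. Plxnb2, the most abundant, was at 606.2 and 706.2 CPM in WT, 502.8, 484.4 and 566.5 CPM in mutant, and 578.9 and 545.6 CPM in null lines. WT lines were above all others by a small margin (log2 fold change -0.34, SE 0.161, in mutant, and -0.22, SE 0.177, in null), and neither difference was called. Plxna1 ranged from 217.8 to 310.1 CPM in 6 lines and was at 600.3 CPM in mutant 2. Plxnb1, the Sema4d receptor, was at 66.2 and 92.1 CPM in WT, 39.2, 31.4 and 17.2 CPM in mutant, and 39.4 CPM in both null lines. Both WT lines were above all other lines, but the mutant difference of -1.43 (SE 0.343) was not called (edgeR adjusted p = 0.0544), although DESeq2 called it. Plxnd1, a Sema3e receptor, was at 3.78 and 3.57 CPM in WT, 22.6, 1.76 and 17.4 CPM in mutant, and 5.20 and 27.8 CPM in null lines. Plxna2 ranged from 11.4 to 30.5 CPM and Plxna3 from 10.2 to 21.2 CPM. Antisense genes share 970 exonic bases with Plxna1, 257 with Plxnb1 and 118 with Unc5c in GENCODE, and whether the counting used strand is not given in the sources used here. Reads of these pairs may therefore be mixed.

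Both neuropilins, co-receptors of the secreted semaphorins, were highest in WT lines. Nrp1, which also binds VEGF, was at 103.9 and 165.2 CPM in WT, 11.5, 33.9 and 31.6 CPM in mutant, and 79.8 and 38.8 CPM in null lines. The groups were ordered WT, null, mutant without overlap. Nrp1 fell by 2.39 on the log2 scale in mutant against WT (SE 0.523, edgeR adjusted p = 0.0455). It was 1.18 lower in null on the same scale (SE 0.581) and was not called there (edgeR adjusted p = 0.299). Nrp2 was at 539.1 and 452.0 CPM in WT, 283.9, 159.1 and 253.6 CPM in mutant, and 287.4 and 379.5 CPM in null lines, the same order without overlap. Its mutant difference of -1.09 (SE 0.274) was not called by edgeR (adjusted p = 0.0591) or limma-voom, while DESeq2 called it. Per kb, the 2 neuropilins summed to 80.8 and 89.5 CPM in WT, 30.5, 24.8 and 33.2 in mutant and 49.9 and 47.3 in null lines.

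**Figure D4:**
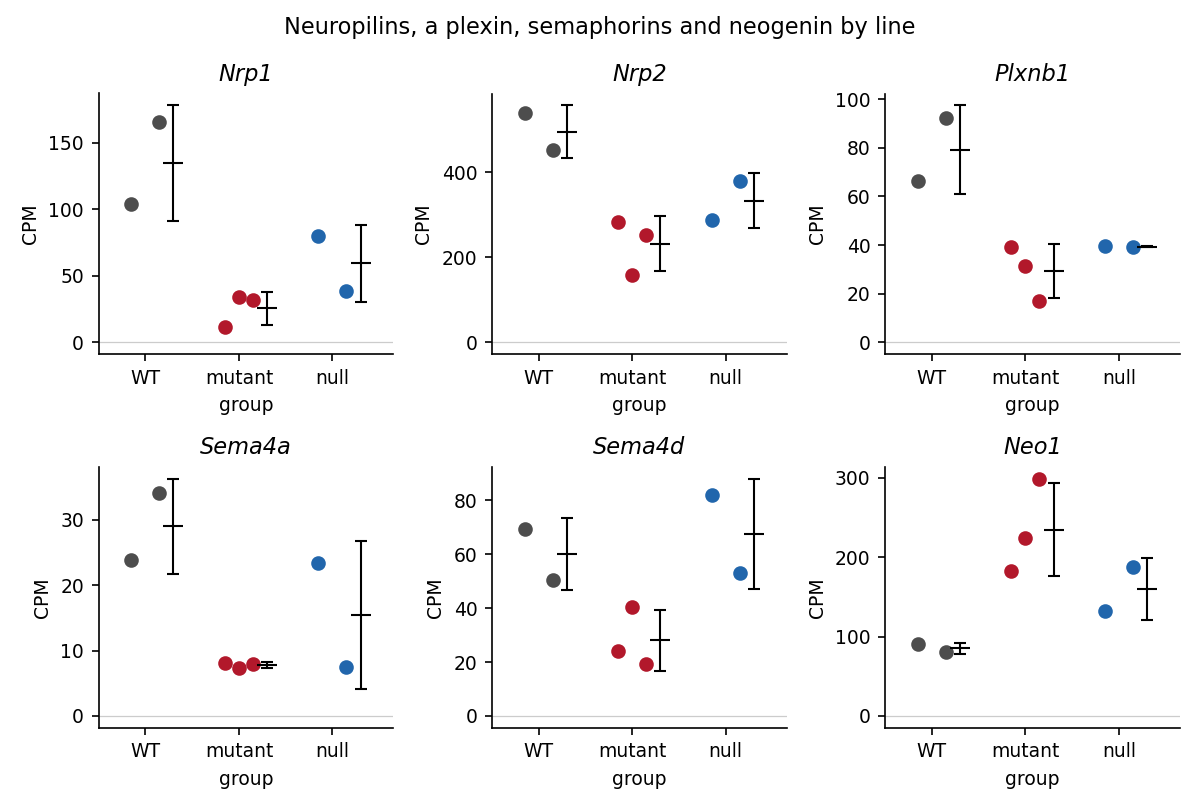
Levels in CPM (y axis) of 6 receptors and ligands by group (x axis), with points for lines and bars for mean ± SD. Both WT lines lie above all mutant lines for Nrp1, Nrp2, Plxnb1, Sema4a and Sema4d, and below all mutant lines for Neo1.

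The netrins themselves were low. Ntn4, a laminin-related netrin of basement membranes, was at 15.3 and 15.9 CPM in WT, 8.48, 8.23 and 37.5 CPM in mutant, and 10.4 and 5.89 CPM in null lines. Mutant 3 was high and the other mutant and null lines were below WT. Ntn1, the classical attractant, was at 0.748 and 0.406 CPM in WT, 9.38, 0.119 and 13.2 CPM in mutant, and 3.77 and 5.58 CPM in null lines. Mutant 2 was the lowest line, so mutant and WT overlapped, and both null lines were above WT. No netrin difference was called by edgeR, and DESeq2 called Ntn1 in mutant against WT (log2 fold change 3.69, adjusted p = 0.0270).

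Neogenin, encoded by Neo1 and a receptor for netrins and RGM proteins, rose in mutant lines. It was at 90.4 and 80.1 CPM in WT 1 and WT 2, at 182.2, 223.9 and 298.9 CPM in mutant 1, 2 and 3, and at 132.2 and 187.6 CPM in null 1 and null 3. WT lines were the lowest, and the mutant and null ranges overlapped. The rise in mutant was 1.46 on the log2 scale (SE 0.268, edgeR adjusted p = 0.0334). In null lines the difference of 0.91 (SE 0.282) was not called by edgeR (adjusted p = 0.171) or limma-voom, while DESeq2 called it. Unc5c, a repellent netrin receptor, had 0 counts in both WT libraries and was at 3.13, 2.82 and 0.619 CPM in mutant and 0.822 and 5.62 CPM in null lines. Against a floor of 3 counts over the WT group, its level was at least 30.9-fold higher in mutant and 41.1-fold higher in null. It passed the filter only through those groups, so no p-value is given. Unc5b, a netrin receptor described as a p53 target, was at 59.5 and 16.97 CPM in WT, 72.5, 54.4 and 105.6 CPM in mutant, and 42.9 and 176.5 CPM in null lines, with all groups overlapping. Per kb, the netrin receptors summed to 22.4 and 13.7 CPM in WT, 37.4, 39.9 and 58.6 in mutant and 25.3 and 56.1 in null lines.

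Several members were highest in the lines with high summed fibroblast markers, a sum whose main genes differed between those lines. Ntn1, Sema6a, Plxnd1, Plxnc1, Unc5b, Slit2, Sema3a, Sema4g and Sema6b were each higher in mutant 1, mutant 3 and null 3 than in any of the other 4 lines. That is 9 of 38 members (23.7%), where 7.31% of all genes tested had this order, and 0 members had the reverse order, beside 4.60% of all genes. The margin was narrow for Sema4g (0.757 CPM in mutant 3 against 0.736 in mutant 2), for Sema6b (0.190 CPM in null 3 against 0.162 in WT 2), for Plxnc1 (0.413 CPM in mutant 3 against 0.365 in null 1) and for Slit2 (53.6 CPM in mutant 3 against 49.1 in mutant 2). The 3 lines span both p53 genotypes, and the part of the fibroblast markers in these values was not tested. Slit3, Slitrk6, Robo3, Nrp1 and Neo1 did not have this order.

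**Figure D5:**
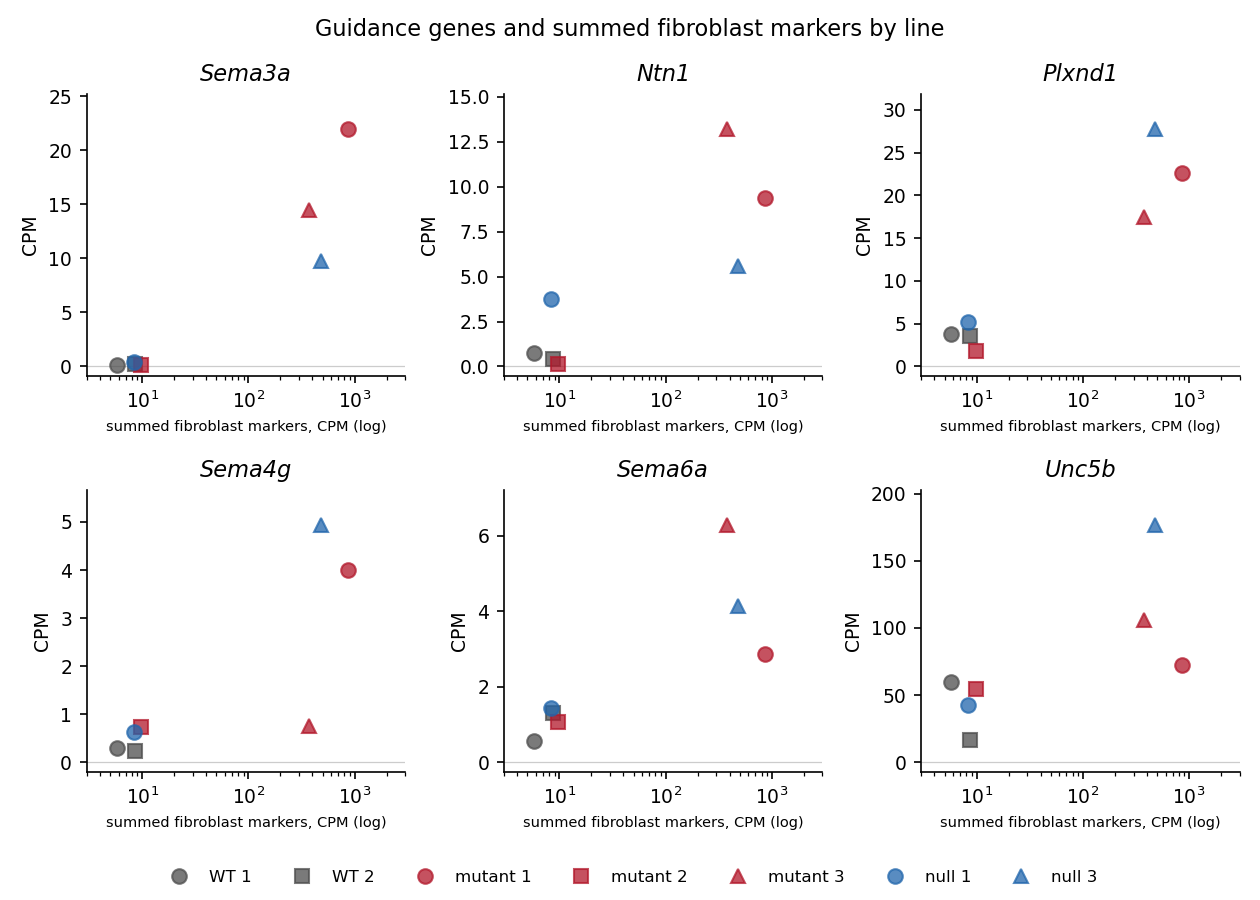
Level in CPM (y axis) of 6 members against the summed CPM of 10 fibroblast markers (x axis, log scale), with colour for the group and shape for the line number. Mutant 1, mutant 3 and null 3 lie to the right, at 376.1 to 859.8 CPM of markers, and highest in each panel.

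Known partners of the pathways were read from 4 lists of 74 genes, of which 60 were tested. In mutant against WT, 1 of the 60 was called higher and 2 lower, beside 3.30% and 4.13% of all genes tested. Nothing is read from these counts about the pathways, and in the other comparisons 0 partners were called. Sdc1, a syndecan that carries the heparan sulfate used by Slits, fell from 1924 ± 120.5 CPM in WT (SD, n = 2) to 867.1 ± 60.5 CPM in mutant (SD, n = 3), a log2 change of -1.15 (SE 0.164, edgeR adjusted p = 0.0229). Usp33, a deubiquitinase that binds Robo1, rose by 0.94 (SE 0.215, edgeR adjusted p = 0.0494), from 55.5 ± 12.6 to 106.8 ± 18.1 CPM. Gipc1, an adaptor of Nrp1 and plexins, fell by 1.01 (SE 0.185, edgeR adjusted p = 0.0331), from 213.2 ± 40.1 to 105.6 ± 10.9 CPM. Of the 12 netrin partners and the 8 tested further guidance ligands and receptors, 0 were called in any comparison, and Dcc, the best known netrin receptor, did not pass the filter. The smallest p among the further ligands and receptors in mutant against WT belonged to Rgmb, a neogenin ligand, at a log2 fold change of 0.62 (SE 0.196), and to Slitrk5, at 4.39 (SE 1.51), with edgeR adjusted p of 0.0958 and 0.112. Among netrin partners, Trim9 had a log2 difference of 6.28 (SE 2.49) in mutant against WT, which was not called.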

How the data were processed

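RNA-seq libraries of 7 lines were analysed from raw counts per gene that the authors deposited in one table. STAR 2.5.1b and mm9 were used, per the submitters' processing notes. Which counting tool, strand option and annotation were used is not given in the sources used here. The 92 spike-in names held 0 counts and were left out. The 27 names in the form of dates were kept and not named. Groups and line numbers came from the sample titles.

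All 7 libraries entered one fit in R 4.3.3 with edgeR 4.0.16 (TMM factors, default expression filter by group, legacy quasi-likelihood F test). Benjamini-Hochberg adjustment ran over all 13768 genes tested, with a threshold of 0.05. The common biological coefficient of variation was 0.485. Library totals ranged from 12751118 to 47000225 counts. No replicate library was a copy of another (chi-square over degrees of freedom of 55.9 to 233.6). Levels are TMM-normalised CPM, and a pseudocount of 0.1 was used for the heat map only. Exonic lengths came from GENCODE M21, a later build than the counts. Groups with 0 counts were set to a floor of 3 counts, and ratios over 1 to 3 counts carry exact 95% intervals. Both cover counting error only. The script was tested on simulated data.

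The members and lists were chosen with earlier results of these data known. Members named with a value in each library were those called, those without overlap at a log2 fold change of at least 2 and at least 1 CPM, and the highest of each role. Others were named after their values were seen. Alternatives were RLE factors, DESeq2 1.42.0, limma-voom (limma 3.58.1), the newer quasi-likelihood form, no expression filter, a stricter one of 5 CPM in 2 libraries, only the groups compared, the replicate number as a block, and each library left out in turn.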

Additional observations from a re-analysis of the deposited data

How the results depend on the processing

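The number of members called depended on the processing. In mutant against WT it was 5 of 38, beside 1022 of all 13768 genes tested. It was 4 with limma-voom (Slit3 no longer among them), beside 743 of all genes, and 14 with DESeq2, beside 3198. DESeq2 added Slit2, Robo2, Nrp2, Plxnb1, Sema3a, Sema4a, Sema4d, Ntn1 and Unc5c. For Sema3a and Unc5c these calls are descriptions, since both WT lines were near 0. The newer quasi-likelihood form called 8, beside 1335, and the fit without the filter on low counts called 11, beside 1136. With only the groups compared it was 9, beside 1521, and with single mutant lines left out it was 0 to 8. In null against WT it was 1, beside 19 of all genes, and 7 with DESeq2, beside 1549. DESeq2 added Slit2, Slit3, Robo3, Sema3a, Unc5c and Neo1 there. For Slit3, Robo3, Sema3a and Unc5c the calls are descriptions, since levels in WT lines, or for Robo3 in null lines, were near 0. It was 0 with limma-voom, beside 0, and 0 with only the groups compared, beside 17. Calls of fits that leave a single line in a group are not counted. In mutant against null it was 0, beside 0 of all genes. DESeq2 called Slit3 and Sema4d there, from which nothing is read. The causes were not tested. Deviations from the group mean had correlations from -0.405 to 0.138 between same-numbered lines. In a group of 2 lines the deviations mirror each other, so these values cannot show whether the numbers pair the lines. With the replicate number as a block, 0 members were called in mutant against WT and 0 in null against WT, as were 0 of all genes in each.

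Of the alternative values of the members named by the rule, 16 changed sign and the others kept their direction. Changes of side of the threshold are not counted, since fits that leave a single line in a group are among these values. Those that changed sign were small or rested on 1 line, and with single lines left out they ranged as follows on the log2 scale. In mutant against WT, Sema4b ranged from -0.34 (without mutant 3) to 0.072 (without mutant 1) and Ntn4 from -0.92 (without mutant 3) to 0.54, and Ntn4 was at -0.19 with limma-voom and -0.47 with the block. In null against WT, Robo1 ranged from -1.94 (without null 3) to 0.45 (without null 1; 0.21 without WT 2), Sema3c from -0.26 (without null 3; -0.20 without WT 2) to 0.49, and Sema7a from -0.085 to 1.29 (without WT 2 and WT 1). In mutant against null, leaving out null 3 gave the upper end for Sema3b (-1.85 to 1.44), Sema4g (-1.91 to 1.52), Plxnd1 (-0.99 to 1.43) and Unc5c (-1.35 to 1.42). Plxnd1 was at 0.50 with the block and 0.28 without mutant 2, and Ntn1 at -0.75 with limma-voom. With 2 or 3 lines a group, a missing call does not show that levels were alike.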
